A study of Mus musculus with 12 samples.

Results

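The transcriptome of CD18-sufficient bone marrow-derived dendritic cells (BMDC) after lipopolysaccharide (LPS) was compared with that of unstimulated BMDC. CD18 is the common β chain of the β2 integrins and is encoded by Itgb2. The members of the comparison were the 3 fl/fl Cre- libraries treated with LPS and the 3 untreated fl/fl Cre- libraries, chosen by their genotype (CD18fl/fl) and treatment labels, and they made up 6 of the 12 libraries of the study. The other 6 came from CD11c cKO BMDC, in which Cre driven by the CD11c promoter deletes the floxed CD18 exon. All 6 libraries described here carried the homozygous floxed Itgb2 allele, which was made in C57BL/6N embryonic stem cells, and no Cre transgene, so they were the Cre-negative controls of the study rather than cells of unmodified mice. Bone marrow cells were grown for 10 days with GM-CSF, received 100 ng/mL LPS or nothing, and were harvested at 24 h by the labels (overnight by the study's methods). MHCII-positive cells were then selected with magnetic beads and their poly(A) RNA was sequenced. GM-CSF cultures hold dendritic cells together with macrophage-like cells, and both can carry MHCII. No source states the age of the mice, or whether the replicate numbers stand for separate mice or cultures, so the p-values measure the spread between these libraries, which may be partly technical.

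LPS is bound by the TLR4 complex with its partners CD14 and MD-2, and is signalled through the adaptors MyD88 and TRIF. The MyD88 arm activates NF-κB and MAP kinases and leads to inflammatory cytokines. The TRIF arm activates TBK1 and IRF3, so that interferon-β is made and acts back on the cells through STAT2 and IRF9 to switch on interferon-stimulated genes. Dendritic cells mature in this response: they stop taking up antigen, raise costimulatory molecules and change their chemokine receptors.

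The 6 libraries held between 29689149 and 34037178 total gene reads, of which 95.1% to 96.2% were unique to 1 position. Values are given below as CPM (read counts scaled to a common library size, with TMM composition factors), always in the order of replicates 1, 2 and 3. 3 reads, the smallest number treated as detected, corresponded to 0.0838 to 0.124 CPM on this scale, and this limit covers counting error only, since PCR copies were not marked. The library of LPS replicate 3 stood apart from the other LPS libraries. On the first principal component, which held 50.4% of the variance, the untreated libraries lay at -38.3, -49.7 and -93.5, LPS replicates 1 and 2 at 91.8 and 103, and LPS replicate 3 at -13.7. The second component, with 31.1%, set both replicate 3 libraries (-48.3 untreated and -90.2 with LPS) apart from the other 4, which lay between -1.99 and 70.6. Reads assigned to introns made up 2.08% to 2.20% of gene reads in the untreated libraries and 3.20%, 3.35% and 4.54% after LPS.

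Libraries with the same replicate number deviated together. The Pearson correlation across genes of their deviations from the group means was 0.486, 0.261 and 0.547 for replicates 1, 2 and 3, whereas replicate 3 correlated with the other numbers at -0.339 to -0.504. Replicates 1 and 2 also correlated across numbers, at 0.284 and 0.328, above the value of the replicate 2 pair itself, so that replicates 1 and 2 were not told apart by this check. All 3 same-numbered pairs passed the limit of 0.1 set for this check, but so did replicates 1 and 2 across numbers. Deviations from a mean of 3 libraries cancel out, so replicates 1 and 2 deviate jointly wherever replicate 3 stands apart. The check therefore shows that both replicate 3 libraries differed in shared ways, and it cannot decide whether the numbers pair replicates 1 and 2. Results are given both without and with the number as a block.

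All 10 dendritic cell markers were detected. Among them, H2-Ab1, H2-Aa, H2-Eb1 and Cd74 belong to MHC class II presentation and made up most of the summed level. The cells had been selected for MHCII, so detection of these genes does not test the dendritic cell label. Zbtb46, the transcription factor that marks conventional dendritic cells, was at 28.9, 25.7 and 21.6 CPM untreated and 41.5, 37.0 and 31.5 CPM with LPS. Flt3 went the other way, with 29.4, 39.5 and 2.48 CPM untreated and 14.7, 10.2 and 1.76 CPM with LPS. The summed level of the 10 was 27990, 28100 and 17730 CPM untreated and 37510, 50800 and 17930 CPM with LPS, lowest in replicate 3 of each group (exact permutation p = 0.4). The 12 macrophage or monocyte markers were also detected, so the libraries were not purely of dendritic cell type. Their summed level was 36530, 37540 and 9299 CPM in untreated and 13160, 15700 and 7954 CPM in LPS libraries, which overlapped because untreated replicate 3 was low (exact permutation test, two-sided, p = 0.3; with 3 against 3 libraries the smallest possible p is 0.1). Lyz2 made up most of this sum, with 33760, 34640 and 7651 CPM untreated and 11390, 13870 and 5699 CPM with LPS. 4 of these 12 markers fell without a block and 6 with it, and none was called higher in either fit. Cd14, Ly6c2 and Adgre1 nevertheless went the other way in every pair. Ly6c2 was 42.5, 13.9 and 2.60 against 125, 85.5 and 119 CPM, and Adgre1 454, 546 and 479 against 715, 700 and 620 CPM. Neutrophil markers summed to 1915, 586 and 175 CPM untreated and to 103, 91.3 and 121 CPM with LPS, without overlap (exact permutation p = 0.1). Mmp8 made up most of this sum in untreated replicates 2 and 3 (444 and 163 CPM). S100a8 was lower in untreated replicate 3 than in any LPS library, with 489, 41.6 and 9.08 against 19.8, 25.9 and 11.3 CPM. Eosinophil markers summed to 37.6, 18.5 and 2.65 against 0.753, 0.701 and 0.171 CPM (exact permutation p = 0.1). T cell markers reached 12.7 to 116 CPM and B cell markers 1.12 to 107 CPM, with the lowest untreated sum of each in replicate 3. Summed markers of mast cells or basophils (9.20 to 93.5 CPM) were highest in the replicate 3 library of each group. So were those of plasmacytoid dendritic cells (2.08 to 36.6 CPM). A few genes carried these sums, and others went the other way. Cox6a2 was 0.495, 0.251 and 36.2 CPM untreated, whereas Ly6d of the same list was 6.00, 21.8 and 0 CPM. Cpa3 was 2.91, 2.54 and 38.5 CPM untreated and Gata2 6.12, 12.5 and 54.7 CPM, whereas Prss34 was 7.2, 8.74 and 0.0295 CPM. Stromal markers summed to 0.402 to 1.34 CPM untreated and 2.13 to 12.8 CPM with LPS. Dcn carried this rise in replicates 1 and 2 (0.124, 0.782 and 0 against 4.34, 12.7 and 0.739 CPM). Pdgfrb reached 1.34 CPM in LPS replicate 3, and the other stromal markers stayed at or below 0.354 CPM. Natural killer cell and erythroid markers stayed at or below 2.21 CPM in sum. In such bulk libraries fewer cells of a type and less RNA per cell cannot be told apart, and the part that these markers had in the changes below was not tested.

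Without a block, 263 genes were higher and 233 lower after LPS among 12744 tested, 2.06% and 1.83% (edgeR quasi-likelihood test, adjusted p under 0.05). Every one of them had a log2 fold change of at least 1 in size. With the replicate number as a block, 807 genes rose and 820 fell, or 6.33% and 6.43%. The block kept 261 of the 263 higher and 232 of the 233 lower calls. The biological coefficient of variation was 0.508 without and 0.356 with the block. When replicate 3 was left out of both groups, 3000 genes were higher and 3140 lower of 12924 tested, 23.2% and 24.3%, and these held all 263 and all 233 calls of the 6 libraries. The count without a block rested on single libraries. Leaving out LPS replicate 3 gave 1613 higher and 1655 lower genes. Leaving out untreated replicate 1, untreated replicate 2, LPS replicate 1 or LPS replicate 2 gave no call in either direction by edgeR, although 960 to 1124 genes were higher and 918 to 1010 lower at an unadjusted p under 0.05; with all 6 libraries DESeq2 called 969 higher and 826 lower. All 111 genes that were called without a block and met the rule for naming genes lost their call when any 1 of these 4 libraries was left out. Without untreated replicate 3 the counts were 252 and 254. Below, calls are those of edgeR on the 6 libraries, and a gene called with the block only was not called by edgeR without it. DESeq2 without a block called 17 of the 32 such genes that met the rule for naming.

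The replicate 3 pair shared the direction of the response for most of the genes called in the other 2 pairs. The correlation of the LPS differences (log2 of CPM + 0.5) across the 12744 genes was 0.873 between pairs 1 and 2, 0.570 between pairs 1 and 3 and 0.514 between pairs 2 and 3; genes are not independent replicates. Pair 3 can be read on its own for the genes called in replicates 1 and 2. Of 2953 such higher genes tested in all 6 libraries, 2162 (73.2%) were also higher in pair 3, against 49.6% of all genes tested. Of 3034 such lower genes, 2230 (73.5%) were lower or equal in pair 3, against 50.4% of all genes. The median LPS difference of the higher genes was 1.05 in pairs 1 and 2 and 0.33 in pair 3, and that of the lower genes -1.24 and -0.42, on the log2 scale. These genes were chosen by their calls in pairs 1 and 2, which enlarges their differences there. The medians therefore cannot show by how much the response of pair 3 differed in size.

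**Figure D1:**
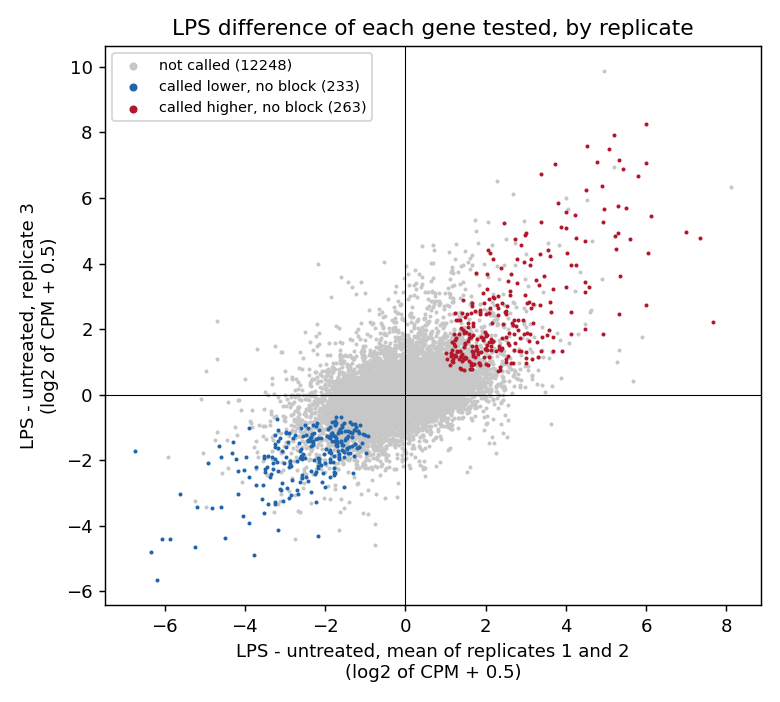
Each point is 1 of the 12744 genes tested. The horizontal axis is the LPS minus untreated difference averaged over replicates 1 and 2 and the vertical axis that of replicate 3, both in log2 of CPM + 0.5; red and blue mark the 263 genes called higher and the 233 called lower without a block, which lie in the upper right and lower left.

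Among the 5 higher genes with the smallest p was Saa3, an acute-phase serum amyloid A protein. Its level was 129, 106 and 77.9 CPM in untreated and 7720, 8624 and 3468 CPM in LPS libraries, a log2 fold change of 5.98 (SE 0.50, adjusted p = 0.00989). Isg20, an interferon-induced exonuclease, went from 6.59, 5.47 and 4.57 to 102, 127 and 78.5 CPM, a log2 fold change of 4.21 (SE 0.31, adjusted p = 0.00989). In neither gene did the groups come near each other, and replicate 3 had the lowest value in both groups. Ly6i, Car13 (a carbonic anhydrase) and Fabp3 (a fatty acid-binding protein) completed these 5, with log2 fold changes of 4.62, 3.55 and 7.28 (adjusted p = 0.00989 for each). The 5 genes with the largest fitted fold changes were low or absent in untreated cells. Nts, the neurotensin precursor, had 0 reads in the untreated libraries and 2.40, 6.23 and 8.39 CPM with LPS, which made it at least 64.2-fold higher when the untreated mean was set to the limit of 3 reads per library. On the same basis Cfap52 was at least 40.0-fold, Hoxa3 at least 26.1-fold and Unc93a2 at least 22.4-fold higher. Only 3.19% of the Hoxa3 reads mapped uniquely, so its value is uncertain. Gm13822, with 0.0309, 0 and 0 against 14.5, 15.9 and 1.31 CPM, overlaps the interferon-stimulated gene Oasl1 and no strand setting of the counting is known, so reads of the pair cannot be told apart.

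The lower genes with the smallest p included Rab3il1, Gas6, Tifab and Ppfia4. Rab3il1, a regulator of RAB GTPases, fell from 28.8, 30.9 and 20.3 to 2.29, 1.86 and 1.79 CPM, a log2 fold change of -3.75 (SE 0.30, adjusted p = 0.00989). Gas6, a ligand of the TAM receptors that damp inflammation, fell from 10.1, 13.0 and 9.97 to 0.681, 0.825 and 0.540 CPM (log2 fold change -4.01, SE 0.37, adjusted p = 0.0127). Both genes were low in all 3 LPS libraries, replicate 3 included. Cd209a, a C-type lectin found on monocyte-derived dendritic cells, was among the 5 with the largest fitted decreases, with 26.9, 63.4 and 51.7 CPM untreated and 0, 0.165 and 0.540 CPM with LPS (log2 fold change -7.56, SE 0.99, adjusted p = 0.0162). The others were Tspan8, Mamdc2, Slc9a9 and Depdc1b. Mamdc2 (80.3, 75.6 and 1.45 against 0.502, 0.0413 and 0.0853 CPM) and Slc9a9 (30.4, 30.1 and 4.25 against 0.179, 0.0825 and 0.0853 CPM) were already low in untreated replicate 3. Depdc1b had 0 reads in the LPS libraries and 0.959, 0.754 and 0.708 CPM in the untreated ones, which made it at least 7.64-fold lower; with the block its call was lost (adjusted p = 0.0682).

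**Figure D2:**
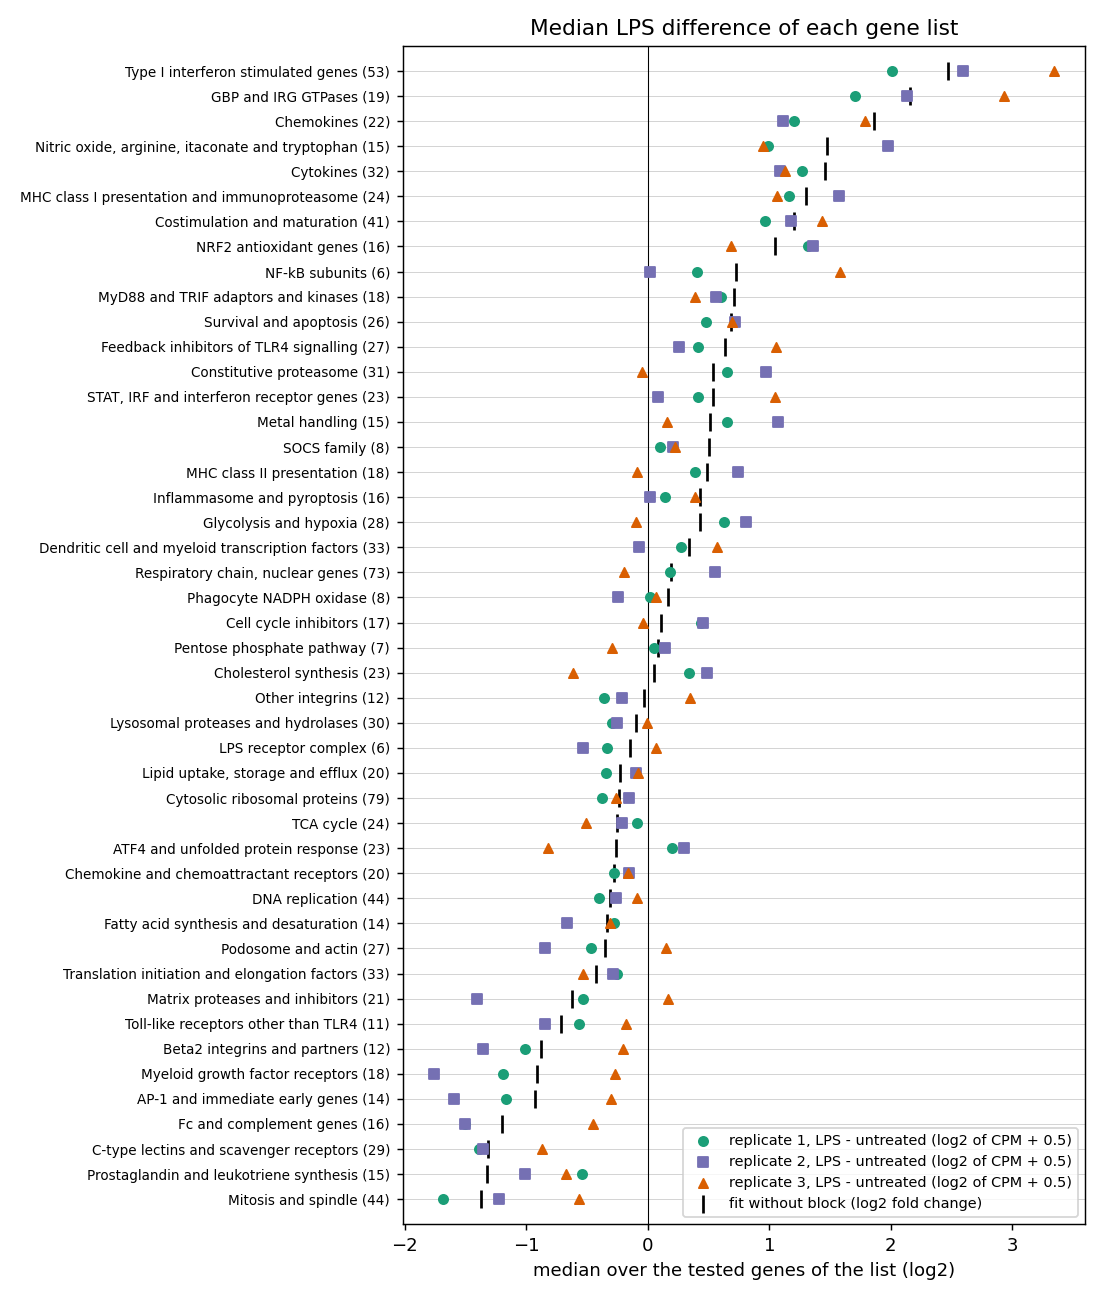
Median over the tested genes of each list (number in brackets) of the LPS minus untreated difference in replicates 1, 2 and 3 (symbols, log2 of CPM + 0.5) and of the log2 fold change of the fit without block (bar). Interferon-stimulated genes lie highest in all 3 pairs, and replicate 3 lies nearer 0 than the other pairs for most of the lists at the lower end.

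Of the 6 genes of the LPS receptor complex none was called without a block; their median log2 fold change was -0.15, and that of all genes tested -0.02. Tlr4 itself was 37.3, 32.5 and 105 CPM untreated and 13.1, 8.42 and 135 CPM with LPS (log2 fold change -0.16, SE 1.04, adjusted p = 0.942). Both replicate 3 libraries were high in Tlr4, and without them the fall in the other pairs was called (log2 fold change -1.70, adjusted p = 1.1e-04). Cd14, the co-receptor, was 227, 255 and 87.5 against 495, 559 and 1175 CPM, without overlap, but was called in neither edgeR fit of 6 libraries (log2 fold change 1.97, SE 0.52, adjusted p = 0.0859, and 0.0759 with the block). DESeq2 without a block called it higher (adjusted p = 0.00264), as did edgeR in replicates 1 and 2 alone (1.13, adjusted p = 2.3e-04). Ly96, which encodes MD-2, rose with the block only (log2 fold change 1.83, adjusted p = 0.0248), and Ly86, the MD-1 partner of RP105, fell with it (-0.92, adjusted p = 0.0436). Among 18 adaptors and kinases, none was called without and 4 were higher with the block (background 6.33%), among them Map3k8 (1.77), Ticam2 (1.03) and Tbk1 (0.99). Of the 6 NF-κB subunits, Rel rose with the block (1.19, adjusted p = 0.0239).

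Feedback inhibitors of the pathway, 27 genes, had 2 higher and 1 lower member without a block and 7 and 2 with it. Tnip3, an A20-binding inhibitor of NF-κB, went from 168, 149 and 83.5 to 852, 936 and 481 CPM (log2 fold change 2.50, SE 0.40, adjusted p = 0.0269). Dusp16, a MAP kinase phosphatase, rose by 1.52 (SE 0.25, adjusted p = 0.0309), and Cd200r1, an inhibitory receptor, fell from 160, 145 and 284 to 53.4, 71.3 and 53.7 CPM (-1.72, SE 0.33, adjusted p = 0.0424). The suppressors of cytokine signalling, which block JAK-STAT signalling, gave no call among 8 genes by edgeR in either fit of 6 libraries. In replicates 1 and 2 alone 4 were higher and 2 lower (background 23.2% and 24.3%). Socs3, Cish and Socs1 were higher in both replicate 3 libraries than in the other 4. Socs3 was 26.3, 27.3 and 161 CPM untreated and 23.6, 26.7 and 473 CPM with LPS (log2 fold change 1.29, SE 1.29, adjusted p = 0.581). Cish was 17.0, 13.8 and 166 against 27.2, 28.8 and 237 CPM (0.58, SE 1.20, adjusted p = 0.807). Socs1 was 18, 17.1 and 69.0 against 33.6, 23.6 and 199 CPM (1.30, SE 0.93, adjusted p = 0.429). Each of these 3 was higher with LPS within replicate 3, and Cish and Socs1 within every pair. Socs2 and Socs4 had log2 fold changes of 0.64 and 0.43, and Socs5 and Socs6 of -1.16 and -1.13 (edgeR, adjusted p = 0.0923 to 0.294); DESeq2 without a block called Socs5 and Socs6 lower (adjusted p = 0.0365 and 0.0412). Socs5 (7.61, 8.80 and 8.91 against 3.15, 3.51 and 4.66 CPM) did not overlap between the groups.

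Of 32 cytokine genes tested, 5 were higher and 2 lower without a block, and 15 and 4 with it; the median log2 fold change was 1.46. Il6 went from 2.50, 2.32 and 12.3 to 337, 406 and 402 CPM (log2 fold change 6.06, SE 0.80, adjusted p = 0.0162). Il1b was 62.1, 62.2 and 12.4 against 795, 856 and 1687 CPM (4.61, SE 0.72, adjusted p = 0.0248). Tnfsf15, which costimulates T cells as TL1A, was 1.21, 2.65 and 3.01 against 68.8, 72.1 and 135 CPM (5.32, SE 0.50, adjusted p = 0.0127). All 3 rose in every pair, and Il1b and Tnfsf15 reached their highest level in LPS replicate 3. The other 2 called members were Ebi3 and Tnfsf10.

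Several classical LPS cytokines were called by edgeR on 6 libraries with the block only. Tnf was 6.62, 5.25 and 41.7 CPM untreated and 22.6, 15.6 and 207 CPM with LPS. It was higher in every pair, but the untreated level of replicate 3 exceeded the LPS level of the other 2, so that it was called with the block (log2 fold change 1.89, adjusted p = 0.0093) and not without it (2.20, SE 1.21, adjusted p = 0.317). Il12b, the p40 chain of interleukin 12 and 23, was 247, 139 and 3.13 against 5314, 6257 and 3383 CPM (5.26, SE 1.34, adjusted p = 0.0793, and 6.31, adjusted p = 0.0272 with the block). Its partner chain Il12a was 0.124, 0 and 0.885 against 2.72, 1.20 and 16.3 CPM (4.32, adjusted p = 0.16, and 4.65, adjusted p = 0.0115 with the block). DESeq2 called Il12b and Il12a without a block (adjusted p = 5.03e-07 and 0.00445). The other partner, Il23a, had no read in replicates 1 and 2 of either group and 0.531 CPM untreated and 70.3 CPM with LPS in replicate 3, and it did not pass the filter on low counts. Il10 was 0.402, 1.68 and 0 against 1.04, 4.33 and 0.313 CPM (1.44, SE 1.51, adjusted p = 0.601). Ifnb1, the interferon of the TRIF arm, did not pass the filter either, with 0.155, 0 and 0 CPM untreated and 4.98, 4.25 and 0.227 CPM with LPS. DESeq2 without a block called Ifnb1 higher (6.00, adjusted p = 2.4e-04), as did edgeR in replicates 1 and 2 alone (5.88, adjusted p = 2.5e-04). The 2 lower cytokine genes were Il16 (23.9, 19.9 and 14.4 against 1.11, 1.94 and 2.59 CPM; -3.36, adjusted p = 0.0162), of whose reads 65.0% were unique, and Ltb, lymphotoxin β (26.8, 21.8 and 12.7 against 2.44, 1.28 and 2.39 CPM; -3.32, adjusted p = 0.0162).

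Of the chemokines, 1 of 22 was higher without a block, 8 higher and 1 lower with it, and the median was 1.86. Cxcl10, the interferon-induced ligand of CXCR3, was 1.24, 2.82 and 0.619 against 21.8, 27.8 and 118 CPM (5.16, SE 0.91, adjusted p = 0.0355). Ccl6 was 1633, 1407 and 12210 against 341, 408 and 7827 CPM. It was lower in every pair, but between replicate 3 and the others it differed more than between treatments, and it was called with the block only (-1.57, adjusted p = 0.0365, against 0.751 without).

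The receptors for chemokines and other attractants moved both ways, with 3 higher and 5 lower of 20 without a block. Ccr4 rose from 1.21, 0.726 and 2.98 to 23.4, 30.9 and 53.2 CPM (4.45, SE 0.63, adjusted p = 0.0189). The formyl peptide receptors Fpr2 (11.4, 7.48 and 14.3 against 124, 89.9 and 180 CPM; 3.57, adjusted p = 0.0138) and Fpr1 (4.64, 1.73 and 2.48 against 27.4, 11.6 and 12.7 CPM; 2.55, adjusted p = 0.0484) rose as well. Ccr2, which brings monocytes to inflamed tissue, fell from 666, 604 and 50.5 to 10.2, 5.28 and 1.31 CPM (-6.30, SE 1.23, adjusted p = 0.0426). C5ar1, the C5a receptor, fell from 28.1, 55.0 and 22.4 to 2.19, 1.73 and 4.15 CPM (-3.70, SE 0.51, adjusted p = 0.0179), and Ltb4r1, the leukotriene B4 receptor, from 44.4, 35.1 and 32.8 to 5.66, 4.29 and 7.13 CPM (-2.71, SE 0.29, adjusted p = 0.0138). Ccr7, which guides mature dendritic cells to lymph nodes, was already high in unstimulated replicates 1 and 2. It was 2527, 2523 and 266 CPM untreated and 2655, 3132 and 1385 CPM with LPS (0.43, SE 0.76, adjusted p = 0.768, and 0.249 with the block).

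Costimulation and maturation genes numbered 41, of which 6 were higher and none lower without a block and 22 and none with it. The median log2 fold change was 1.21, and 35 of the 41 estimates were positive. CD40, through which T cells license dendritic cells, had Cd40 levels of 67.8, 45 and 22 against 434, 455 and 683 CPM (3.54, SE 0.48, adjusted p = 0.0164). Cd86 was 215, 172 and 229 against 823, 765 and 662 CPM (1.87, SE 0.25, adjusted p = 0.0164). Its relative Cd80 was 27.8, 21.7 and 78.2 against 177, 130 and 438 CPM, did not overlap between the groups, and was called with the block only (2.58, adjusted p = 0.00458, against 0.0835 without). Cd70, the ligand of CD27, and Cd200, the ligand of CD200R1, rose by 2.91 and 3.13 (adjusted p = 0.0443 and 0.0272). Slamf7 and Clec2d were the other called members.

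Of 24 genes of MHC class I presentation and the immunoproteasome 7 were higher without a block and 16 with it, none was lower, and the median was 1.30. The non-classical class I gene H2-T22 went from 186, 141 and 116 to 1861, 2154 and 672 CPM (3.40, SE 0.50, adjusted p = 0.0203), and H2-T24 from 10.2, 7.18 and 4.04 to 56.5, 68.3 and 48.2 CPM (3.01, SE 0.39, adjusted p = 0.0162). H2-Q7 rose by 2.82 (SE 0.48, adjusted p = 0.0324). Class I genes are near copies of each other, so their shares of the reads are uncertain. The other called members were H2-Q4, H2-Q6, H2-M3 and Tap1, the peptide transporter. Of 31 genes of the constitutive proteasome, Psma5 alone was called without a block (1.41, SE 0.29, adjusted p = 0.0493).

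No gene of MHC class II presentation was called among 18 by edgeR, with or without the block, and the median was 0.49. In replicates 1 and 2 alone 10 of the 18 were higher and 1 lower (background 23.2% and 24.3%). The response of the 2 classes was not compared by a test. H2-Ab1 was 7122, 7312 and 5092 CPM untreated and 9458, 14610 and 4741 CPM with LPS (0.56, SE 0.44, adjusted p = 0.468). The 2 higher values belonged to replicates 1 and 2, and replicate 3 hardly moved. Ciita, the class II transactivator, was 86.4, 101 and 46.4 against 94.3, 91.8 and 62.2 CPM (0.09, SE 0.34, adjusted p = 0.902). All cells had been selected for MHCII before RNA was taken, so a change in the share of MHCII-positive cells could not be seen.

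**Figure D3:**
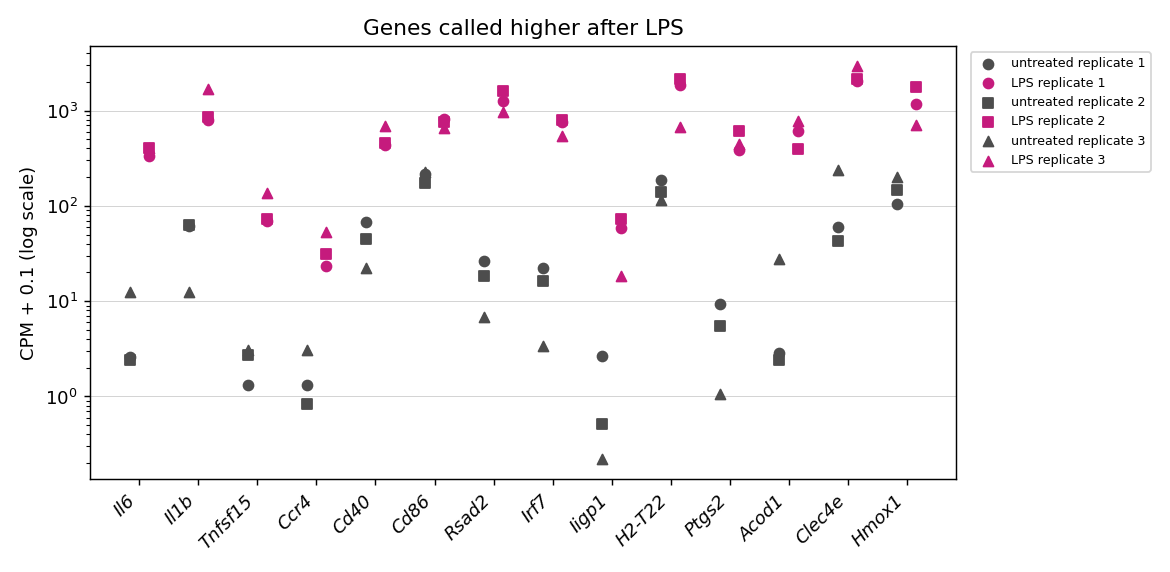
CPM + 0.1 on a log axis for 14 genes called higher after LPS without a block, with 1 point per library (grey untreated, magenta LPS; circle, square and triangle for replicates 1, 2 and 3). The groups do not overlap for any of the 14, but the genes were picked among those called, so this is no separate result.

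Interferon-stimulated genes were the list with the highest median. Of 53 genes of the type I interferon response 29 (against 2.06% of all genes tested) were higher without a block and 41 with it, none was lower, and all 53 estimates were positive, with a median of 2.47. The median difference was 2.01, 2.60 and 3.35 in pairs 1, 2 and 3, so replicate 3 did not lag behind in this list. Rsad2, which encodes the antiviral protein viperin, went from 26.2, 18.4 and 6.72 to 1253, 1609 and 970 CPM (6.22, SE 0.61, adjusted p = 0.0127). Slfn4 was 0.804, 0.140 and 0.619 against 44.0, 43.5 and 29.8 CPM (6.23, SE 0.63, adjusted p = 0.0134). Ifi205, a DNA-binding HIN-200 protein, was 2.26, 1.20 and 0.0295 against 125, 116 and 53.7 CPM (6.40, SE 1.14, adjusted p = 0.0358), with 69.0% unique reads. Other called members included Isg15, Ifit1, Ifit2, Oasl1, Cmpk2, Usp18, Mx2, Ifih1, Dhx58 and Zbp1.

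The GTPases that attack intracellular vacuoles, GBPs and IRGs, had 6 higher of 19 without a block and 14 with it, and a median of 2.15. Iigp1 was 2.54, 0.419 and 0.118 against 58.8, 72.5 and 18.2 CPM (5.61, SE 1.14, adjusted p = 0.0465). Gbp5, which promotes inflammasome assembly, was 27.9, 17.9 and 12.4 against 140, 111 and 485 CPM (3.66, SE 0.67, adjusted p = 0.0371). Gbp6 rose by 3.78 (SE 0.45, adjusted p = 0.0159), but 27.6% of its reads were unique. Among 23 STAT, IRF and interferon receptor genes, Irf7, the amplifier of the interferon response, went from 22.4, 16.1 and 3.27 to 763, 789 and 536 CPM (5.64, SE 0.75, adjusted p = 0.0162), and Stat2 from 31.8, 19.7 and 32.1 to 242, 206 and 202 CPM (2.96, SE 0.29, adjusted p = 0.0127). Ifngr1, a chain of the interferon-γ receptor, fell with the block only, from 267, 249 and 62.9 to 88.8, 74.3 and 30.8 CPM (-1.46, adjusted p = 0.0185).

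Promoter sequence was set beside these lists, as RefSeq windows (build GRCm38.p6) from 250 bases before to 50 after each gene start, 32851 windows in all. The interferon-stimulated response element was searched as GAAANNGAA on both strands. It occurred in 8.56% of all windows and 9.03% of the 10010 tested genes with a window, in 41 of 207 genes called higher (19.8%) and in 11 of 187 called lower (5.88%). It was found for 22 of 40 type I interferon genes, 10 of 11 GBP and IRG genes and 5 of 20 class I genes. The κB motif, searched as GGGANNTTC, occurred for 4.47% of tested, 8.70% of higher and 6.95% of lower genes, and for 6 of 28 cytokine and 5 of 21 chemokine genes. The E2F motif TTTCCCGC was present for 6 of 35 DNA replication genes and none of 37 mitosis genes, against 2.39% of tested genes, and the sterol element ATCACNCCA for 1 of 16 cholesterol synthesis genes, against 0.599%. A match describes letters in this window and not binding. The 4 stretches below, the bases before the gene start, show the interferon element, in capitals, in a pair of higher genes and the κB motif, in capitals, in the pair of cytokine genes lower without a block.
Rsad2 (chr12:26456453-26456702, minus strand): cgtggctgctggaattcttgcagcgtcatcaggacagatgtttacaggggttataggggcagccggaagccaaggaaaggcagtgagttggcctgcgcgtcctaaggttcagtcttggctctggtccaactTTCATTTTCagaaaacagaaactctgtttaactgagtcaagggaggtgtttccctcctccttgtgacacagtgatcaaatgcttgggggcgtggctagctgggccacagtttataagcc
Isg15 (chr4:156200819-156201068, minus strand): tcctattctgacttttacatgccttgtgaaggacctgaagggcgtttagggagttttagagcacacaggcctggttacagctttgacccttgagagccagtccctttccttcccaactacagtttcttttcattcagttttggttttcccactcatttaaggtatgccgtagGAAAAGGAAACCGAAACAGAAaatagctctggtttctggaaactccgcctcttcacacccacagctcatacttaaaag
Il16 (chr7:83655496-83655745, minus strand): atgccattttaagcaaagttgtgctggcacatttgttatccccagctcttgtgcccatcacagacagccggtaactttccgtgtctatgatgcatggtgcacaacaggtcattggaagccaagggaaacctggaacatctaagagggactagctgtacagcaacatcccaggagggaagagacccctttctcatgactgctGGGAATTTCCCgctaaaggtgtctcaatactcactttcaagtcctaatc
Ltb (chr17:35194257-35194506, plus strand): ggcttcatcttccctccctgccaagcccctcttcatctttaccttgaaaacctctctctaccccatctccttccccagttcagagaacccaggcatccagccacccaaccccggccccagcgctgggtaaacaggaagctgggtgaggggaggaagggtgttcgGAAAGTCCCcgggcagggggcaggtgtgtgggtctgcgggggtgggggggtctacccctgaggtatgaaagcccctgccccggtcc
Isg15 (log2 fold change 5.73, adjusted p = 0.0138) held 3 overlapping matches within 1 run and Rsad2 held 1. Il16 and Ltb were the cytokine genes that fell without a block; with it 2 more fell, which are not shown.

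Of 15 genes of nitric oxide, arginine, itaconate and tryptophan metabolism 2 were higher without a block and 8 with it, and all 15 estimates were positive. Acod1, which makes itaconate, went from 2.75, 2.32 and 27.8 to 607, 398 and 778 CPM (5.76, SE 1.14, adjusted p = 0.0442). Slc7a11, the cystine importer, went from 120, 120 and 226 to 447, 562 and 424 CPM (1.62, SE 0.34, adjusted p = 0.049). Nos2, the inducible nitric oxide synthase, had 0, 0 and 5.60 CPM untreated and 123, 153 and 488 CPM with LPS; it was called with the block (adjusted p = 0.0138) and not without it (0.106).

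In prostaglandin and leukotriene synthesis, 2 genes were higher and 1 lower of 15, and 2 and 7 with the block. Ptgs2, the inducible cyclooxygenase, went from 9.31, 5.33 and 0.973 to 382, 605 and 448 CPM (6.52, SE 0.86, adjusted p = 0.0162). Ptges, the downstream prostaglandin E synthase, went from 0.526, 1.76 and 4.10 to 109, 92.9 and 91.7 CPM (5.52, SE 0.73, adjusted p = 0.0162). The list as a whole had a negative median (-1.32), so these 2 stood against most of its other members; Tbxas1, thromboxane synthase, fell from 138, 131 and 84.6 to 42.0, 38.8 and 52.8 CPM (-1.40, SE 0.28, adjusted p = 0.0448). Among 21 matrix proteases and inhibitors Timp1 rose (4.32, SE 0.57, adjusted p = 0.0162) and Mmp8, a neutrophil collagenase that was also among the neutrophil markers, fell (-2.44, SE 0.51, adjusted p = 0.0487).

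Cell death genes moved both ways. Of 16 inflammasome and pyroptosis genes 4 were higher and 1 lower. Casp4, the sensor of cytosolic LPS, went from 20.3, 19.9 and 23.8 to 129, 139 and 118 CPM (2.59, SE 0.22, adjusted p = 0.00989). Mlkl, the executor of necroptosis, rose by 2.71 (SE 0.34, adjusted p = 0.0162) and Ripk2, the NOD adaptor kinase, by 2.04 (SE 0.34, adjusted p = 0.0314). P2rx7, the ATP-gated channel, fell from 16.9, 26.5 and 14.3 to 2.51, 2.31 and 6.14 CPM (-2.39, SE 0.49, adjusted p = 0.0465). Survival genes had 3 higher of 26 without a block and 10 higher and 1 lower with it. Cflar, the caspase 8 inhibitor, rose from 37.2, 40.7 and 34.3 to 144, 160 and 240 CPM (2.28, SE 0.28, adjusted p = 0.0162). Bcl2a1b and Bcl2a1d, near-identical prosurvival genes with 66.0% and 76.4% unique reads, rose by 1.87 and 1.62 (adjusted p = 0.036 and 0.0482). Bcl2 fell with the block only (-1.53, adjusted p = 0.0268).

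Of 29 C-type lectins and scavenger receptors 1 was higher and 4 lower without a block (background 1.83% lower), 4 and 12 with it, and the median was -1.32. Clec4e, which encodes Mincle, was the exception, with 60.5, 43.0 and 240 against 2027, 2143 and 2962 CPM (4.38, SE 0.73, adjusted p = 0.0313). Clec4a2, an inhibitory lectin, fell from 120, 107 and 39.7 to 12.4, 14.5 and 8.96 CPM (-2.89, SE 0.46, adjusted p = 0.0264), and Clec4b1 from 28.9, 18 and 3.66 to 0.466, 0.908 and 0.711 CPM (-4.60, SE 0.80, adjusted p = 0.0338). Of 11 Toll-like receptors other than TLR4 none was called without a block, and Tlr1 (2.47) and Tlr6 (1.09), which pair with TLR2, were higher with it (adjusted p = 0.0422 and 0.033).

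Fc and complement genes had 1 higher and 5 lower of 16. The 3 chains of C1q, which starts the classical complement pathway, fell together. C1qa was 129, 137 and 167 against 11.2, 19.5 and 22.4 CPM (-3.03, SE 0.33, adjusted p = 0.0138), C1qb 450, 406 and 437 against 52.6, 88.7 and 68.4 CPM (-2.62, SE 0.28, adjusted p = 0.0138), and C1qc 230, 242 and 376 against 16.3, 31.1 and 65.8 CPM (-2.90, SE 0.54, adjusted p = 0.0388). C1qa and C1qb were among the 4 lower macrophage or monocyte markers, and the part of these cells in the fall of C1q was not tested. The other lower members were Fcgrt and Cfp. Cfb, the factor B of the alternative pathway, rose from 34.0, 37.4 and 7.73 to 904, 753 and 629 CPM (4.85, SE 0.64, adjusted p = 0.0162), but 10.3% of its reads were unique.

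The β2 integrins and their partners, the subject of the study, gave no call among 12 genes without a block and 2 lower with it, and a median of -0.88. Itgb2, the floxed gene, was present in all 6 libraries, at 425, 468 and 418 CPM untreated and 186, 190 and 298 CPM with LPS. The groups did not overlap, and the log2 fold change of -0.96 (SE 0.28) was outside the threshold in both edgeR fits of 6 libraries (adjusted p = 0.103, and 0.0517 with the block). It was called lower by DESeq2 without a block (adjusted p = 0.046), by edgeR in replicates 1 and 2 alone (-1.25, adjusted p = 8.3e-05) and without LPS replicate 3 (-1.22, adjusted p = 0.0128). Itgam (CD11b) was 566, 557 and 828 against 68.0, 38.3 and 222 CPM (-2.57, adjusted p = 0.0792, and -2.94, adjusted p = 0.0117 with the block), and 28.9% of its reads were unique. Itgax (CD11c) was 194, 234 and 500 against 42.2, 34.1 and 318 CPM (-1.23, adjusted p = 0.435, and -1.89, adjusted p = 0.0433 with the block). Itgal (CD11a) was 42.2, 50.6 and 37.3 against 12.3, 7.55 and 88.7 CPM, down in pairs 1 and 2 and up in pair 3 (-0.26, SE 0.85, adjusted p = 0.882).

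Of 12 other integrin genes 2 were lower: Itgb7, from 97.6, 95 and 43.3 to 5.41, 4.37 and 8.19 CPM (-3.71, SE 0.43, adjusted p = 0.0155), and Itgb5 (-2.25, SE 0.43, adjusted p = 0.0398). Itga5, the fibronectin receptor chain, rose with the block only (1.71, adjusted p = 0.0219). Among 27 podosome and actin genes Gsn, the actin-severing protein gelsolin, fell from 336, 334 and 450 to 115, 98.5 and 128 CPM (-1.71, SE 0.26, adjusted p = 0.0221). It was the sole call without a block (background 1.83% lower), and 3 of the 27 were lower with the block (background 6.43%).

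**Figure D4:**
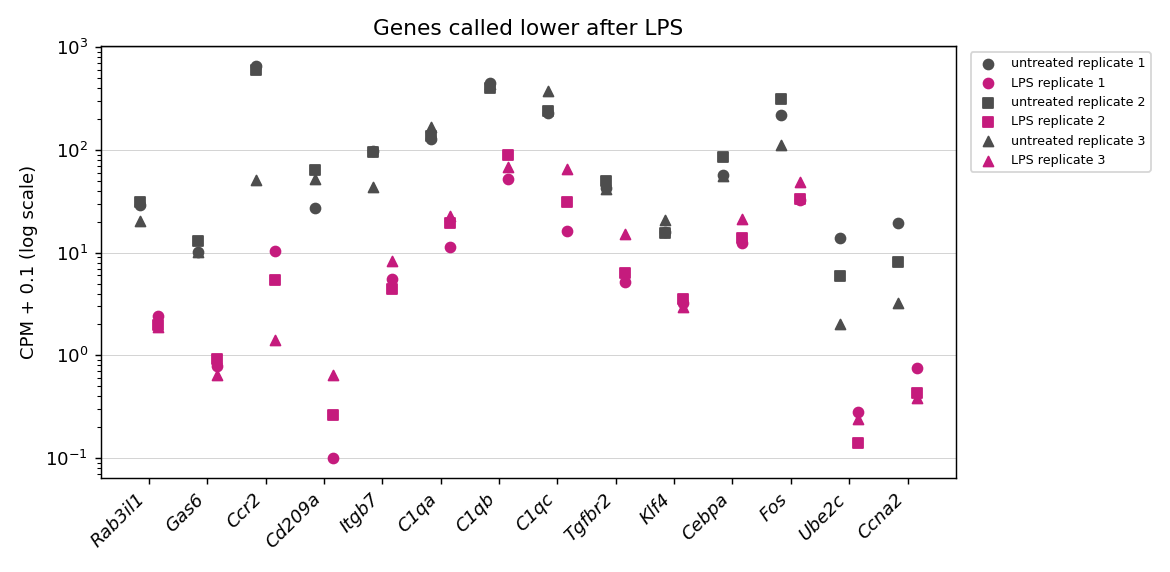
CPM + 0.1 on a log axis for 14 genes called lower after LPS without a block, with 1 point per library (grey untreated, magenta LPS; circle, square and triangle for replicates 1, 2 and 3). The groups do not overlap for any of the 14, which is no separate result either, since the genes were picked among those called. Ccr2 shows the widest gap between untreated replicate 3 and the other untreated libraries.

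Growth factor receptors fell where they were called, 3 of 18 without a block and 6 with it. The TGF-β receptor chains Tgfbr2 (42.9, 49.9 and 42.1 against 5.12, 6.27 and 15.0 CPM; -2.35, SE 0.44, adjusted p = 0.0386) and Tgfbr1 (-1.46, SE 0.26, adjusted p = 0.036) were joined by Il17ra (-1.44, SE 0.28, adjusted p = 0.0442). Transcription factors of dendritic and myeloid cells went in both directions, 3 higher and 3 lower of 33. Batf, an AP-1 family member of activated dendritic cells, went from 14.3, 15.6 and 18.4 to 54.9, 86.6 and 56.7 CPM (2.04, SE 0.27, adjusted p = 0.0162), and the orphan nuclear receptors Nr4a2 and Nr4a3 rose by 2.08 and 1.99 (adjusted p = 0.0178 and 0.0221). Klf4, a monocyte differentiation factor, fell from 15.8, 15.4 and 20.5 to 3.15, 3.47 and 2.84 CPM (-2.45, SE 0.28, adjusted p = 0.0144), and Cebpa, a factor of myeloid commitment, fell by 2.08 on the log2 scale (SE 0.32, adjusted p = 0.0224). Of 14 AP-1 and immediate early genes Fos fell from 218, 317 and 111 to 32.6, 33.3 and 49.2 CPM (-2.49, SE 0.43, adjusted p = 0.0336) and Ier2 from 139, 135 and 117 to 49.4, 41.7 and 36.3 CPM (-1.62, SE 0.23, adjusted p = 0.0195).

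Of 44 genes of mitosis and the spindle 5 were lower without a block and 8 with it, none was higher, the median was -1.37, and 39 estimates were negative. Ube2c, which drives mitotic exit, went from 13.8, 5.81 and 1.92 to 0.179, 0.0413 and 0.142 CPM (-5.82, SE 0.96, adjusted p = 0.0293). Ccna2, cyclin A2, went from 19.3, 7.93 and 3.16 to 0.645, 0.330 and 0.284 CPM (-4.58, SE 0.80, adjusted p = 0.0338), and Kif23, a kinesin of cytokinesis, fell by 4.02 on the log2 scale (SE 0.76, adjusted p = 0.0398). These 3 fell in every pair. Mki67, the usual proliferation marker, did not follow them in replicate 3, with 8.97, 4.27 and 6.58 against 1.61, 1.49 and 30 CPM (0.74, SE 1.12, adjusted p = 0.725). Of 44 DNA replication genes 1 was higher and 2 lower, near the background of 2.06% and 1.83%. Rrm2, a ribonucleotide reductase chain, fell by 3.25 and E2f2 by 2.31 (adjusted p = 0.0442 and 0.0195), while Tyms, thymidylate synthase, rose from 11.6, 8.57 and 5.87 to 27.7, 28.3 and 24.4 CPM (1.63, SE 0.30, adjusted p = 0.0388). Among 17 cell cycle inhibitors Cdkn1b (p27; 2.02) and Ccng2 (1.42) rose with the block only (adjusted p = 0.0182 and 0.0222).

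Lysosomal genes had 3 lower of 30 without a block, and 3 higher and 4 lower with it. Ctse, cathepsin E, fell from 23.6, 19.5 and 2.01 to 0.287, 0.536 and 0.171 CPM (-5.52, SE 1.02, adjusted p = 0.0375), and the glycosidases Man2b1 and Gusb fell by 2.69 and 2.20 (adjusted p = 0.0204 and 0.0293). Npc2, a cholesterol carrier, Ctsk and Ctsz were the 3 higher with the block, by 1.41, 1.08 and 0.97 (adjusted p = 0.0321, 0.0446 and 0.0296).

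In lipid metabolism single steps changed. Of 20 genes of lipid uptake, storage and efflux 2 were higher and 1 lower. Acsl1, which activates long-chain fatty acids, rose from 32.0, 30.2 and 32.6 to 333, 312 and 222 CPM (3.19, SE 0.27, adjusted p = 0.00989), and Dgat2, the last step of triglyceride synthesis, by 2.24 (SE 0.40, adjusted p = 0.0356), whereas Nceh1, a cholesterol ester hydrolase, fell by 1.46 (SE 0.28, adjusted p = 0.0409). Dhcr7 was the 1 gene of 23 in cholesterol synthesis called without a block (background 1.83% lower). Its level was 16.6, 16.1 and 16.3 against 4.26, 5.16 and 5.60 CPM (-1.71, SE 0.26, adjusted p = 0.0222). With the block 2 of the 23 were lower (background 6.43%). Of 14 genes of fatty acid synthesis and desaturation 2 were higher without a block: Acss2 (2.19, SE 0.45, adjusted p = 0.0486) and Me1 (1.99, SE 0.37, adjusted p = 0.0388), which supply acetyl-CoA and NADPH. With the block Fasn (-2.77, adjusted p = 0.0384) and Scd2 (-0.995, adjusted p = 0.0354) fell.

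Central carbon metabolism gave 2 calls without a block, both lower and among the 24 genes of the TCA cycle (background 1.83% lower). With the glycolysis, respiratory chain and pentose phosphate lists counted in, the share was near that background. Idh1 fell from 356, 330 and 245 to 122, 126 and 98.2 CPM (-1.43, SE 0.26, adjusted p = 0.0365). Idh2, its mitochondrial counterpart, fell from 53.4, 53.9 and 75.0 to 19.8, 22.4 and 30.1 CPM (-1.33, SE 0.27, adjusted p = 0.0458). The 28 genes of glycolysis and hypoxia had a median of 0.43 and no call without a block. With the block Ndrg1 alone was called, as higher (1.26, adjusted p = 0.0324, background 6.33% higher). In replicates 1 and 2 alone 17 of the 28 were higher and 4 lower (background 23.2% and 24.3%), with median differences of 0.63 and 0.80 in those pairs and -0.09 in pair 3. The 73 nuclear respiratory chain genes had no call in either fit. Their median of 0.19 became -0.14 under scaling by library size alone, a scaling that moved the median of all genes from -0.02 to -0.32. No gene of the phagocyte NADPH oxidase (8 tested) or the pentose phosphate pathway (7 tested) was called in either fit. Library size scaling also turned the small positive medians of cholesterol synthesis (0.05 to -0.30), the phagocyte NADPH oxidase (0.17 to -0.12), the pentose phosphate pathway (0.08 to -0.28) and the cell cycle inhibitors (0.11 to -0.25), while the signs of the lists described above with medians beyond 0.4 in size stayed.

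Translation genes had negative medians of small size. None of 79 cytosolic ribosomal protein genes was called without a block. With it 4 were lower, a share below the background of 6.43%. Among them were Rpl3, Rpl4 and Rpl13 (-1.11, -1.06 and -0.94, adjusted p = 0.0224, 0.0261 and 0.0459). The median was -0.24, and 61 of the 79 estimates were negative. Of 33 initiation and elongation factors, Eef2 alone was called without a block (background 1.83% lower). Eef2, which moves the ribosome along, fell from 1150, 1478 and 1462 to 382, 355 and 651 CPM (-1.56, SE 0.32, adjusted p = 0.0488). Of 23 genes of ATF4 and the unfolded protein response Herpud1, a part of the ER degradation machinery, fell (-1.08, SE 0.22, adjusted p = 0.0488).

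The list of NRF2 and antioxidant genes had 6 higher members of 16 without a block, and 8 higher and 1 lower with it. Its median was 1.05. Hmox1, heme oxygenase 1, went from 106, 147 and 200 to 1185, 1756 and 708 CPM (3.01, SE 0.44, adjusted p = 0.02). Prdx1, a peroxiredoxin, went from 1695, 2003 and 2732 to 8949, 13400 and 8145 CPM (2.25, SE 0.34, adjusted p = 0.0225), and Srxn1, which repairs peroxiredoxins, from 93.4, 118 and 100 to 398, 419 and 225 CPM (1.74, SE 0.31, adjusted p = 0.036). The other 3 were Keap1, Txn1 and Sqstm1, and Osgin1 was the lower gene (-1.36, adjusted p = 0.03 with the block). Of 15 metal handling genes 2 were higher and 2 lower. Slc11a2, an iron importer, and Cp, ceruloplasmin, rose by 1.37 and 2.54 (adjusted p = 0.0484 and 0.0478). The transferrin receptor Tfrc fell from 94.0, 49.9 and 82.0 to 24.2, 22.5 and 21.6 CPM (-1.72, SE 0.29, adjusted p = 0.0309), and Steap3, the ferrireductase of the same route, fell by 2.78 (SE 0.53, adjusted p = 0.0402).

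**Figure D5:**
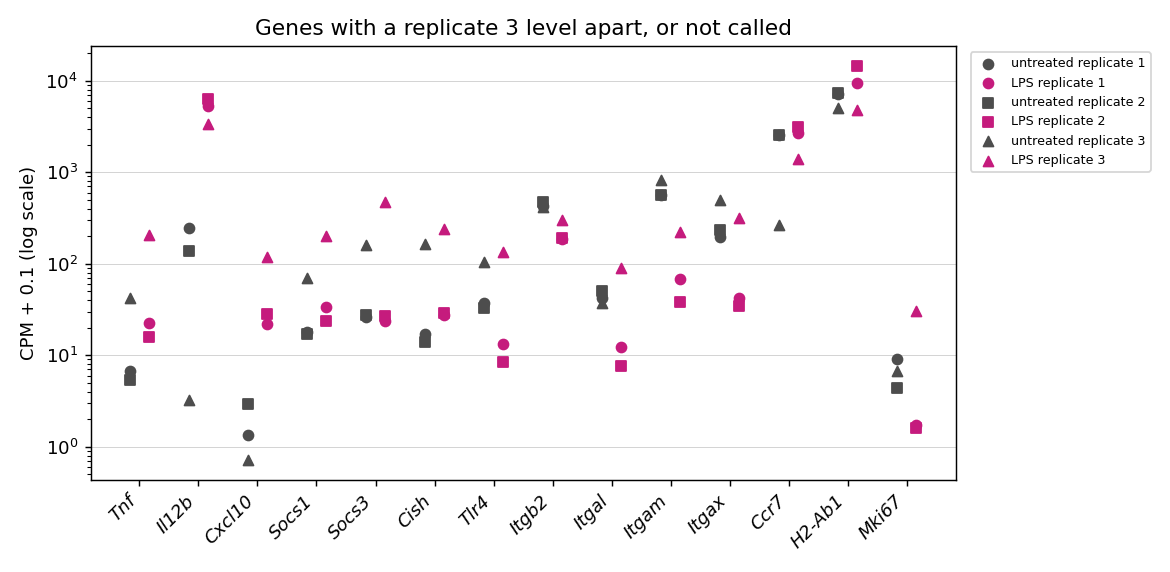
CPM + 0.1 on a log axis for 14 genes picked after their values were seen, because replicate 3 stood apart or the gene was not called without a block (Cxcl10 was called), with 1 point per library (grey untreated, magenta LPS; circle, square and triangle for replicates 1, 2 and 3). Tnf, Socs1, Socs3 and Cish show both replicate 3 libraries above the other 4 libraries.

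Among further genes of interest to the study, Wdfy1 (43.2, 21.3 and 27.2 against 73.8, 38.5 and 25.9 CPM), Commd2 (43.9, 36.0 and 35.6 against 59.2, 71.6 and 36.8 CPM) and Thbs1 (510, 785 and 682 against 700, 823 and 908 CPM) had log2 fold changes of 0.59, 0.54 and 0.30 (SE 0.45, 0.29 and 0.27), and none was called in either fit. Whether the LPS response of fl/fl cells differed from that of CD11c cKO cells was tested as an interaction over all 12 libraries. By edgeR it was called for 0 of 13752 genes without and 0 with the block, against 97 and 272 at an unadjusted p under 0.05, and no gene of the response above is therefore described as particular to CD18-sufficient cells.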

How the data were processed

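According to the study's methods, the authors sequenced poly(A) libraries as single-end reads and counted them per gene in CLC Genomics Workbench with default settings. The deposited files hold raw counts for 41709 genes per library, as total gene reads (used here), unique gene reads, exon reads and intron reads; the deposited TPM values were not used in any result. The labels name GRCm38 as build, while the study's methods and the deposited gene positions point to GRCm39. No file position is printed.

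Groups came from the genotype and treatment labels. Total gene reads were tested with edgeR 4.0.16 in R 4.3.3 (filterByExpr, minimum count 10, TMM, quasi-likelihood test, Benjamini-Hochberg over 12744 genes, threshold 0.05), first without a block and then with one for the replicate number. Same-numbered libraries correlated above 0.1 in all 3 pairs, as did replicates 1 and 2 across numbers. DESeq2 1.42.0, other scalings, filters, unique reads, an exon-length offset and left-out libraries were alternatives. The code was tested on simulated data. No library was a copy of another.

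The comparison and its 46 gene lists were chosen with earlier results of these data known. Genes were named by rule: per direction the 5 smallest p-values and 5 largest fold changes among calls without block, per list up to 3 called members each way by size (from the blocked fit where the other gave none), and 35 genes of interest whatever their values. Called list members given without values, and Isg15 with its promoter, were added to these. Promoter sequences were taken from RefSeq, build GRCm38.p6. Some genes that met the rule are not reported here.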

Additional observations from a re-analysis of the deposited data

Results flagged for a closer look

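The share of gene reads that the files assign to introns was higher after LPS. Intron reads were not tested by themselves above, but they are part of the total gene reads that were tested. It was 2.12% ± 0.0654 (SD, n = 3) in untreated and 3.70% ± 0.731 (SD, n = 3) in LPS libraries, with all LPS libraries above all untreated ones (two-sided p = 0.1 by exact permutation, the lowest value open to 3 against 3 libraries). The gain was largest for the ribosomal RNA entries mt-Rnr2, Rn18s-rs5 and mt-Rnr1, at 0.484, 0.416 and 0.324 percentage points between the group means. Together they made up most of the rise. mt-Rnr2 took 0.285%, 0.370% and 0.206% of gene reads in untreated and 0.839%, 1.17% and 0.304% in LPS libraries. Rn18s-rs5 took 0.155%, 0.140% and 0.120% untreated and 0.382%, 0.172% and 1.11% with LPS, so that its highest share was that of LPS replicate 3, the library that stood apart. Among the next in size, Filip1l, Cdk8, Rbbp8, Zc3h7a and Jarid2 had their highest share in LPS replicate 3; Rbbp8 had 668, 1013 and 928 intron reads untreated and 1413, 1180 and 22183 with LPS. Il12b, lower in this order and picked after its values were seen, had 244, 153 and 5 untreated and 4369, 5250 and 2735 with LPS. The median over the tested genes of the intron share of a gene's own reads was 1.94% untreated and 2.59% with LPS. The part of the intron and ribosomal reads in the separation of LPS replicate 3 was not tested.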

How the results depend on the processing

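The counts depended on how the replicates were treated. Against 263 higher and 233 lower genes, the replicate block gave 807 and 820, DESeq2 969 and 826, DESeq2 with the replicate block 1599 and 1533, an exon-length offset with the block 939 and 847, all 12 libraries in 1 fit 568 and 500, and replicates 1 and 2 only 3000 and 3140. Leaving out 1 library gave 0 to 1613 higher and 0 to 1655 lower genes. Scaling by library size alone gave 143 higher and 304 lower, which put 32.0% of the calls on the higher side against 53.0%, and with the replicate block (added after the data were seen) 476 and 1145. RLE size factors, no filter, a stricter filter, unique reads and a fold-change limit of 1 kept both counts within 1.5 times.

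None of the 111 genes that met the naming rule and were called without a block changed sign under any alternative, and 110 stayed called with the block; Depdc1b did not. 11 genes changed sign, all of them uncalled without a block. Mki67 was -0.69 with the replicate block, -0.72 in DESeq2 with it, -0.48 with the length offset, -1.07 with library size scaling and the block, and -2.09 in replicates 1 and 2. Socs3 was -0.09 in replicates 1 and 2. Ciita was -0.25 under library size scaling, -0.19 with the block added and -0.01 in replicates 1 and 2, and Thbs1 -0.01 under both forms of library size scaling. Leaving out 1 library moved Ccl6 from -3.76 to 0.92, Tlr4 from -2.44 to 0.58, Il10 from -0.04 to 3.21, Itgal from -2.13 to 0.22, Socs1 from -0.28 to 2.29, Socs3 from -1.50 to 2.70, Cish from -1.22 to 2.67, Ccr7 from -0.08 to 0.77, Ciita from -0.18 to 0.31 and Mki67 from -2.09 to 1.26. All of these but Il10 had an extreme value when a replicate 3 library was left out. The causes were not tested. For genes with a group at 0 reads the depth allows bounds only.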
